A study of Hydractinia symbiolongicarpus with 45 samples.

Results

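The 150 genes described here had the steadiest transcripts-per-million (TPM) levels in the poly(A)+ RNA of the hydroid Hydractinia symbiolongicarpus, a colonial cnidarian, from the unfertilized egg to the larva. TPM is the count of a gene divided by its length and scaled to a fixed total over the kept gene models of each library. It thus gives the share of a gene in the sequenced transcripts of those models. Of 22022 gene models, 20288 were kept after setting aside those of scaffold HyS0385 and those whose counts were identical to the counts of another model. Of these, 3579 had a mean of at least 20 TPM at each of 8 poly(A)+ stages (egg, 2, 3, 4, 7, 24, 48 and 72 hours post fertilization, h) and were eligible. The members were chosen by these measured TPM values: they are the 150 (4.19% of the eligible genes) with the smallest difference between their highest and lowest log2 stage mean. The other 3429 eligible genes are the comparison group throughout.

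In animal embryos the egg supplies most early mRNA, and the embryo's own genome starts to transcribe later, while maternal mRNA is cleared and its poly(A) tails are shortened or lengthened. A transcript can thus hold its level because it is neither cleared nor made, or because loss and synthesis are balanced, and RNA-seq of whole embryos reads only the net level. Genes of steady level are widely used as references in expression assays. Libraries made with poly(A) selection also report tail length, whereas libraries made by removing rRNA do not depend on the tail.

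All animals were wild type. The samples were whole eggs, embryos or larvae, pooled within a collection, and clutch letters A to G mark collection groups. Poly(A)+ and rRNA-depleted libraries were built in parallel from samples up to 7 h, and the larvae at 24, 48 and 72 h (clutches E and F) gave poly(A)+ libraries only. The untreated groups had 3 egg libraries of each type (clutches A, C and D), 2 of each type at 2, 3 and 4 h (A and C), 2 poly(A)+ libraries (B and D) and 1 rRNA-depleted library (B) at 7 h, and 1 of each type at 0.5, 1 (A), 5 and 6 h (B). Embryos of clutches D and G were also given 20 µM Triptolide, an inhibitor of RNA polymerase II transcription, in 0.5% DMSO, or 0.5% DMSO alone, from 30 minutes post fertilization, and were collected at 7 h with 2 libraries of each type per treatment. Library totals were 3107733 to 32015981 estimated counts in 25 poly(A)+ and 3503063 to 20464403 in 18 rRNA-depleted libraries, lowest in clutch B at 5 h and clutch A at 0.5 h. The members held 2.02 to 2.52% of the TPM in the poly(A)+ and 1.61 to 1.97% in the rRNA-depleted libraries, and no member had fewer than 14 counts in any of them. In whole embryos, fewer cells of a type and less RNA per cell cannot be told apart.

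The identifiers are those of the deposited table, in which the part before the point names the scaffold. The files do not pair them with gene names and the RefSeq gene table matched 0 of them, so no function is given for any member. None of the members was among the 40 identifiers named in the study's text or its table of methyltransferase genes, and 1 of those 40 was eligible (HyS0016.179, range 1.27 on the log2 scale, rank 1176).

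The rule itself fixed how flat the members are in the 17 libraries it used, so those values are a description. The stage means of a member spanned between 0.21 and 0.60 on the log2 scale, with a median of 0.46, which is 1.38-fold. The other eligible genes spanned between 0.60 and 7.23, with a median of 1.63, which is 3.09-fold. The limit fell in a dense part of the distribution. HyS0284.7 (1.5131-fold) and HyS0094.10 (1.5133-fold) were the last inside, and HyS0017.175 (1.5146-fold) and HyS0128.7 (1.5164-fold) were the first outside. Libraries of 1 stage differed by a median of 0.13 for a member and 0.15 for another eligible gene, on the log2(TPM + 1) scale, so the smallest stage ranges were near the difference between replicates.

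The steadiness in the larvae depended on the scale. On TPM, the median member at 72 h stood at 0.00 on the log2 scale relative to the egg, while the median of the other eligible genes stood at -0.95. When the same counts were scaled by TMM factors, which set the bulk of genes level between libraries, and divided by length, the median member stood at 0.59, 0.91 and 0.99 at 24, 48 and 72 h, and the other eligible genes at -0.01, 0.06 and 0.03. On that scale the members spanned a median of 2.13-fold over the 8 stages and 0 of the 150 were among the 150 steadiest genes. The best placed was at rank 366 of 5040 eligible genes. From the egg to 7 h the scales gave nearly the same picture: the median member range was 0.29 on both, and 150 of 150 members stayed within 2-fold. The TMM factors were 1.02 to 1.14 in the 19 poly(A)+ libraries up to 7 h and 0.71 to 0.88 in the 6 larval libraries. The 100 genes of highest TPM took 20.5 to 28.1% of the TPM in the former and 35.2 to 49.3% in the latter, and the part this played was not tested. The members are therefore genes of steady share in the transcript pool, not genes shown to keep a steady amount per embryo.

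**Figure D1:**
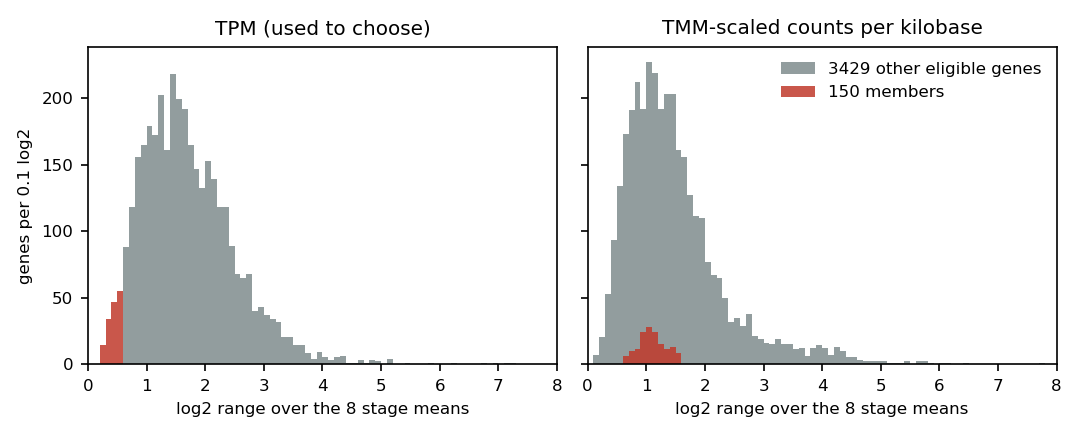
Number of genes (y axis, per 0.1 log2) by the log2 range of the 8 poly(A)+ stage means (x axis), for the 150 members (red) and the 3429 other eligible genes (grey), on TPM at left and on TMM-scaled counts per kilobase at right. The members end at 0.60 on TPM by their definition and lie inside the bulk on the TMM scale, with a median of 1.09.

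**Figure D2:**
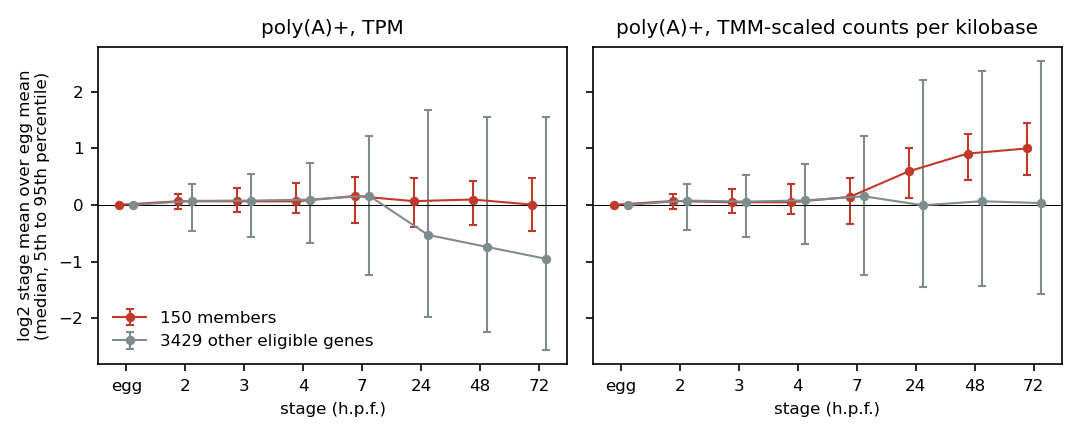
Log2 stage mean relative to the egg mean (y axis) at each poly(A)+ stage (x axis, h), as the median over genes with bars from the 5th to the 95th percentile, for members (red) and other eligible genes (grey). Both groups sit near 0 up to 7 h on either scale; at 72 h the members are at 0.00 and the others at -0.95 on TPM, and at 0.99 and 0.03 on the TMM scale.

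The 5 steadiest members were HyS0081.19 (1.16-fold over the 8 stage means), HyS0071.22 (1.17-fold), HyS0005.240 (1.17-fold), HyS0056.92 (1.19-fold) and HyS0093.28 (1.19-fold). They lie on 5 different scaffolds.

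HyS0081.19 had 207, 230.4 and 234 TPM in the 3 poly(A)+ egg libraries, 215 and 227 at 2 h, 205 and 239 at 3 h, 187 and 234 at 4 h, and 222 and 253 at 7 h. Its larval poly(A)+ levels were 238 and 189 TPM at 24 h, 211 and 235 at 48 h, and 249 and 237 at 72 h. The libraries of 1 stage differed by as much as the stages did. HyS0071.22 had 453, 341 and 361 TPM in the egg and 422 and 450.0 at 72 h in poly(A)+ libraries, with clutch A above clutch C at each of the egg, 2, 3 and 4 h. In the rRNA-depleted libraries the same gene had the narrowest range of all members, 1.24-fold over 18 libraries. Its rRNA-depleted levels were 346, 301 and 299 TPM in the egg, 336 at 7 h, 322 and 313 under DMSO, and 345 and 353 under Triptolide.

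**Figure D3:**
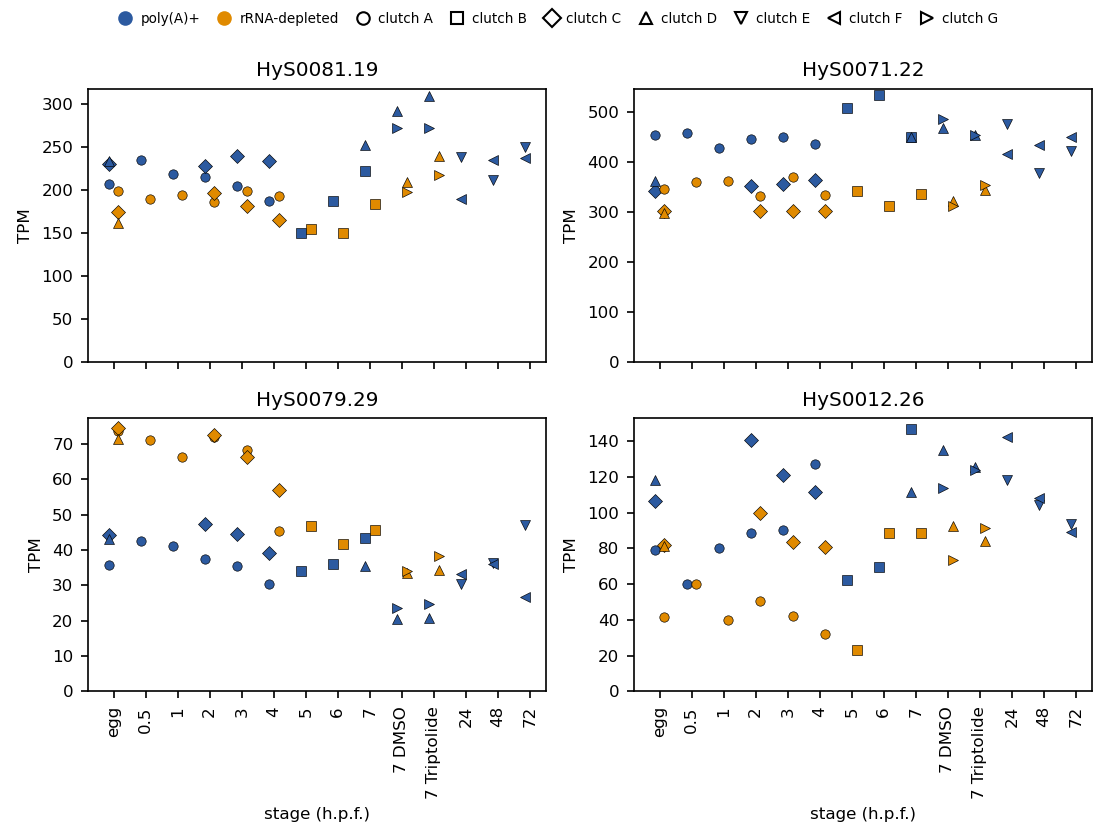
TPM (y axis, from 0) of 4 members in every poly(A)+ (blue) and rRNA-depleted (orange) library by stage (x axis, h), with the marker giving the clutch. HyS0081.19 and HyS0071.22 stay level in both library types, HyS0079.29 lies between 26.8 and 47.2 TPM in untreated poly(A)+ libraries and is lower from 4 h in rRNA-depleted ones, and HyS0012.26 has the widest rRNA-depleted range of the members, from 23.5 to 99.7 TPM.

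The members covered a wide range of levels. HyS0039.101 (mean over the 8 stages 957 TPM) and HyS0057.122 (621 TPM) were the highest, and HyS0013.114 (23.5 TPM) and HyS0004.353 (24.1 TPM) the lowest. The median was 99.2 TPM, beside 87.6 TPM for the other eligible genes. HyS0039.101 had 1085, 1017 and 1062 TPM in the egg and 714 and 818 at 72 h, which put its larval libraries below every earlier one even inside the limit.

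The residual movement of the members was not spread evenly over the stages. The highest stage mean was at 7 h for 47 of 150 members and at 24 h for 26. The lowest was at 72 h for 41 and in the egg for 32. The median member at 7 h stood 0.16 above the egg on the log2 scale, and so did the median of the other eligible genes. The single poly(A)+ libraries at 0.5, 1, 5 and 6 h, which the rule did not use, were within 2-fold of a member's mean log2 level for 150, 150, 146 and 148 members. The library at 5 h had the lowest total count of the poly(A)+ libraries, and 51 members lay inside their own range of stage means there, against 112 at 1 h.

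The members were short. Their coding length had a median of 759 bases, from 204 to 5187, beside 1050 bases for the other eligible genes. HyS0018.39 (5187 bases) and HyS0027.72 (3795 bases) were the longest, and HyS0057.123 (204 bases) and HyS0098.51 (222 bases) the shortest. Members came from 75 of the 253 scaffolds that held an eligible gene, with at most 9 on 1 scaffold (HyS0005, which held 141 eligible genes). There were 2 pairs of members with consecutive numbers, and the 3579 eligible genes formed 1003 such pairs. One member pair was HyS0057.122 and HyS0057.123. HyS0057.123 varied more between clutches than its neighbour, with 660.3, 384 and 339 TPM in the egg poly(A)+ libraries against 591, 498 and 566.

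The rRNA-depleted libraries were not used to choose the members, although those of the egg, 2, 3, 4 and 7 h came from samples whose poly(A)+ libraries it did use. Over all 18 rRNA-depleted libraries, 127 of 150 members (84.7%) stayed within 2-fold on the log2(TPM + 1) scale, beside 63.5% of the other eligible genes. The median range was 1.63-fold for members and 1.79-fold for the others. The widest member, HyS0012.26 (261 bases), had 41.4, 81.9 and 81.1 TPM in the egg, 31.9 and 81.0 at 4 h, 23.5 at 5 h and 88.7 at 7 h. Its clutch A libraries were below those of clutch C at every stage where both were measured, and its lowest value was in the 5 h library of clutch B, where the next library of that clutch, at 6 h, was at 88.4 TPM.

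The members differed from the other eligible genes in clutches with later or treated libraries, and hardly among the early stages of a clutch. Within clutch A (6 rRNA-depleted libraries, egg to 4 h) the median range was 0.24 on the log2 scale for members and 0.25 for the other eligible genes. Within clutch C (4 libraries, egg to 4 h) it was 0.20 for members and 0.19 for the others. Within clutch B (5 to 7 h) it was 0.42 against 0.49, and 143 of 150 members stayed within 2-fold, beside 85.2% of the others. Within clutch D (egg, DMSO and Triptolide) it was 0.40 against 0.43, with 149 members within 2-fold, beside 91.2%. With the members split by mean TPM into 3 classes of 50, the share within 2-fold over all 18 libraries was 78.0, 82.0 and 94.0% of members from the lowest to the highest class, beside 56.0, 68.5 and 63.1% of the other eligible genes at the same levels.

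**Figure D4:**
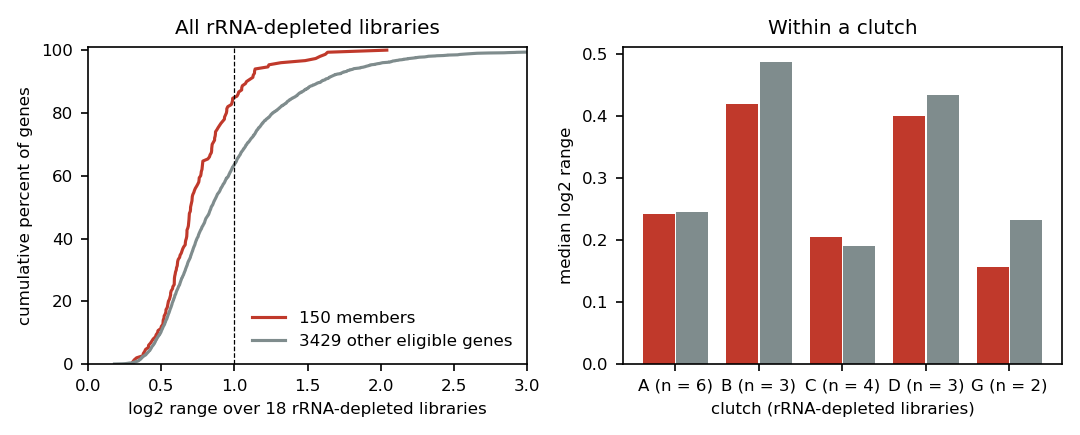
At left, the cumulative percent of genes (y axis) by log2 range over the 18 rRNA-depleted libraries (x axis, log2(TPM + 1)), with a dashed line at 2-fold; 84.7% of members (red) and 63.5% of other eligible genes (grey) lie below it. At right, the median log2 range within each clutch (y axis), with the number of libraries in brackets; members and others are close in clutches A and C and differ most in clutch G, at 0.16 and 0.23.

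Tests of the members against the egg in rRNA-depleted libraries asked whether any of them moved before and at genome activation. These comparisons share the 3 egg libraries. edgeR's quasi-likelihood test on counts, with Benjamini-Hochberg adjustment over 15944 genes, called 0 members at 2 h, where 0% of all genes were called, and 0 at 3 h, where 0.401% were (0.37% higher, 0.0314% lower). At an unadjusted p under 0.05 there were 2 members at each of these stages, and DESeq2 called 0 at both. The study, with DESeq2, reported activated genes at both stages, most of them histone genes, and more than edgeR called here. The 95% intervals of 148 of 150 members lay inside 2-fold at 2, 3 and 4 h alike. A change larger than this was outside the interval for all but 2 members at each stage. The intervals of 3353, 3362 and 3325 of the 3429 other eligible genes also lay inside 2-fold at 2, 3 and 4 h. This was thus not particular to the members. The stages at 0.5, 1, 5 and 6 h have 1 library each, assumed to vary like the others and without a replicate check, and at 5 and 6 h the clutch (B, without an egg library) and the stage cannot be told apart. The single libraries at 0.5 and 1 h called 0 members by edgeR, with 4 and 2 at an unadjusted p under 0.05 (0% of all genes called at both), and DESeq2 was not run for them. The single library at 5 h gave 2 calls, both lower, beside 6.56% of all genes (4.85% higher, 1.71% lower). That at 6 h gave 9, of which 5 were higher and 4 lower, beside 28.7% of all genes (15.2% higher, 13.5% lower).

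At 4 h 1 member was called, HyS0079.29 (2052 bases), where 3.46% of all genes were called (2.95% higher, 0.508% lower). It had 73.6, 74.5 and 71.5 TPM in the 3 rRNA-depleted egg libraries and 45.3 and 57.0 at 4 h, with no overlap. The log2 fold change was -0.41 (SE 0.09, edgeR adjusted p = 0.0386). The call ended under 6 of 12 alternatives, among them leaving out any 1 egg library or the clutch A library at 4 h, which gave adjusted p-values up to 0.507.

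At 7 h most called members were higher than in the egg. In the 2 DMSO libraries (clutches D and G, of which D has an egg library) 38 members (25.3%) were called, 31 higher and 7 lower, beside 50.6% of all genes (26.5% higher and 24.2% lower) and 47.7% of the other eligible genes (24.5% higher and 23.2% lower). Leaving out 1 library moved this count to 25 (DMSO library of clutch D), 22 (DMSO library of clutch G) or 25 (egg library of clutch D). The count also changed with the scaling and the fit. RLE size factors in place of TMM gave 64 members, 59 higher (39.3%) and 5 lower, beside 52.2% of all genes (32.1% higher, 20.1% lower) and 52.8% of the other eligible genes (35.6% higher, 17.2% lower). DESeq2 gave 65, 60 of them higher, beside 44.4% of all genes (24.0% higher, 20.4% lower) and 55.5% of the other eligible genes. With the clutch as a replicate block, where clutch D alone links DMSO to the egg, 63 were called, 57 higher and 6 lower, beside 45.3% of all genes (21.4% higher, 23.9% lower) and 55.6% of the other eligible genes (33.9% higher, 21.7% lower). The share of members called higher was thus below that of the other eligible genes with TMM and above it with RLE and with the block, while the share called lower was smaller in each of these fits.

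The untreated 7 h group was 1 rRNA-depleted library of clutch B, which has no egg library. It was assumed to vary like the other groups and has no replicate check, and clutch and stage cannot be told apart in it. In this library 31 members (20.7%) were called against the egg, 25 higher and 6 lower, beside 42.7% of all genes (21.7% higher and 21% lower) and 40.0% of the other eligible genes. RLE gave 49 members, 45 higher (30.0%) and 4 lower, beside 43.2% of all genes (26.8% higher, 16.4% lower), and DESeq2 gave 51, beside 37.6% of all genes. RLE moved the median of all genes by 0.12 in this and 0.14 in the DMSO comparison on the log2 scale and by -0.20 in the rRNA-depleted Triptolide comparison. Relative to the median of all genes, the median member stood at 0.11 with TMM and 0.17 with RLE in the untreated library, and at 0.06 with either in the DMSO libraries.

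In this single library the largest increases among called members were of HyS0007.376 and HyS0053.107, given as values of 1 library. HyS0007.376 had 30.2, 36.8 and 35.9 TPM in the rRNA-depleted egg libraries and 54.8 at 7 h, a log2 fold change of 0.73. HyS0053.107 had 25.8, 38.2 and 29.3 TPM in the egg and 48.7 at 7 h (0.70), and its call ended under 3 of 9 alternatives. The clutch C egg library of HyS0053.107 was well above the clutch A one. The largest decreases were of HyS0008.83 and HyS0037.108. HyS0008.83 went from 56.3, 75.3 and 75.3 TPM to 36.6 (-0.86). HyS0037.108 went from 54.1, 57.9 and 50.2 TPM to 29.9 (-0.81).

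In the DMSO libraries at 7 h HyS0005.193 (864 bases) and HyS0242.4 (390 bases) had the largest increases. HyS0005.193 had 57.6, 69.8 and 62.6 TPM in the egg and 110.1 and 121 under DMSO (log2 fold change 0.88, SE 0.11, edgeR adjusted p = 7.69e-05). HyS0242.4 had 51.1, 51.5 and 52.6 TPM in the egg and 84.8 and 75.1 under DMSO (0.63, SE 0.15, edgeR adjusted p = 0.00547). The largest decrease was again of HyS0079.29, with 33.5 and 34.1 TPM under DMSO (-1.11, SE 0.10, edgeR adjusted p = 4.37e-06), the only member past 2-fold. HyS0037.108 was next, with 33.3 and 29.5 TPM (-0.78, SE 0.10, edgeR adjusted p = 6.93e-05).

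In poly(A)+ RNA HyS0079.29 had 35.8, 44.2 and 43 TPM in the egg, 43.4 and 35.3 at 7 h, and 47.1 and 26.8 at 72 h, and the rule fixed the closeness of these stage means. Outside the rule, its DMSO libraries were at 20.6 and 23.6 TPM in poly(A)+ RNA, so its DMSO levels were below every egg level in both library types. HyS0037.108 had 28.8, 34.3 and 33.8 TPM in the poly(A)+ egg and 29.2 and 24.5 at 7 h. Its poly(A)+ levels were 21.5 and 21.6 TPM under DMSO and 18 and 21.5 under Triptolide, below every poly(A)+ egg and untreated 7 h level. Its DMSO levels were thus also below every egg level in both library types. In rRNA-depleted RNA, however, they were not all below the single untreated 7 h library, at 29.9 TPM.

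A test of any change from 2 to 7 h in rRNA-depleted libraries, which rests at 5, 6 and 7 h on the single libraries of clutch B, called 12 members (8%), beside 30.6% of all genes and 26.0% of the other eligible genes. Both groups passed the same minimum level. The rule had required flat poly(A)+ levels in samples that also gave the egg and untreated rRNA-depleted libraries of 2 to 7 h. RLE size factors gave 25 members, beside 30.9% of all genes and 29.4% of the other eligible genes, and leaving out the clutch C egg library gave 7.

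The Triptolide comparisons asked whether member levels at 7 h changed under this inhibitor of transcription. The study allows that the drug may not have acted fully and may also affect other parts of the cell. In poly(A)+ libraries edgeR called 0 of 150 members, beside 23.9% of all 18928 genes tested (5.04% higher, 18.9% lower) and 541 (15.8%) of the other eligible genes. At an unadjusted p under 0.05 there were 6 members, and DESeq2 called 8 (3 higher, 5 lower). The median log2 fold change was 0.00, equal to that of the other eligible genes, while all genes had a median of -0.10. The members lay between -0.49 and 0.37, so 0 of them differed by more than 2-fold, beside 181 of the 3429 other eligible genes. The 95% interval lay inside 2-fold for 149 of 150 members and for 2903 of the other eligible genes. The count changed with the fit: with the clutch as a replicate block edgeR called 15 members (5 higher, 10 lower), and with only the 4 compared libraries in the fit 24 (10 higher, 14 lower), when 46.8% and 50.4% of all genes were called. The 4 treated poly(A)+ libraries together spanned a median of 1.16-fold for a member and 1.24-fold for another eligible gene. All 150 members were within 2-fold, beside 92.9% of the other eligible genes.

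In rRNA-depleted libraries 9 members (6.00%) were called under Triptolide, 7 higher and 2 lower, beside 32.3% of all genes (17.9% higher, 14.5% lower) and 25% of the other eligible genes. The direction depended on the scaling: RLE size factors gave 8 calls, all lower, beside 25.1% of all genes (7.85% higher, 17.2% lower), and DESeq2 9, all lower, beside 23.3% of all genes (8.89% higher, 14.4% lower). The median member was at 0.16 with TMM and -0.05 with RLE, which is 0.08 and 0.07 above the median of all genes on the respective scale. The other eligible genes had a median of 0.17 with TMM. With the clutch as a replicate block 26 members were called (10 higher, 16 lower), beside 47.9% of all genes (19.9% higher, 28.0% lower). With only the compared groups in the fit 25 were called (9 higher, 16 lower), beside 47.8% of all genes. Leaving out 1 of the 4 compared libraries gave 1 to 5 calls: 1 without the DMSO library of clutch D, 3 without that of clutch G, 1 without the Triptolide library of clutch D and 5 without that of clutch G.

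HyS0005.193 and HyS0064.43 were the 2 members called lower. HyS0005.193 had 110.1 and 121 TPM under DMSO and 80.5 and 86.9 under Triptolide in rRNA-depleted libraries (log2 fold change -0.40, SE 0.12, edgeR adjusted p = 0.0301). In poly(A)+ libraries it had 159.5 and 171 TPM under DMSO and 126 and 135 under Triptolide. HyS0064.43 had 28.1 and 27.0 TPM under DMSO and 17.7 and 21.8 under Triptolide (-0.42, SE 0.14, edgeR adjusted p = 0.0388). Both stayed lower under every alternative, and the calls ended in 5 and 4 of 11.

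Of the members called higher, HyS0008.83 and HyS0023.146 had the largest folds among those whose libraries did not overlap. HyS0008.83 had 41.9 and 42.9 TPM under DMSO and 60.1 and 54.8 under Triptolide (0.50, SE 0.17, edgeR adjusted p = 0.0454). HyS0023.146 had 145 and 157 TPM under DMSO and 213 and 187 under Triptolide (0.46, SE 0.11, edgeR adjusted p = 0.0108). Neither was called with RLE size factors or DESeq2, where their folds stayed above 0, and the calls ended in 7 and 4 of 11 alternatives. HyS0008.83 was also low in the single untreated library at 7 h, and its Triptolide levels overlapped with its egg levels of 56.3 to 75.3 TPM.

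The interaction of library type and Triptolide called 0 members by edgeR (3.52% of all 19461 genes called, 0.704% higher and 2.82% lower), with 2 at an unadjusted p under 0.05 and 1 by DESeq2. These 2 were HyS0064.43 and HyS0008.83. The log2 effect in poly(A)+ less that in rRNA-depleted libraries was 0.61 (SE 0.19) for HyS0064.43 and -0.62 (SE 0.23) for HyS0008.83. Each difference was opposite in sign to that member's rRNA-depleted change and larger, so poly(A)+ libraries did not show the same change. Both the replicate block and the fit on the compared groups alone gave 2 members. The interval of the difference lay inside 2-fold for 133 of 150 members and 2805 of the 3429 other eligible genes.

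Against the egg, the Triptolide libraries of rRNA-depleted RNA gave 47 called members (31.3%), 43 higher (28.7%) and 4 lower (2.67%). Called beside them were 23.4% of all genes (11.5% higher, 11.9% lower) and 34.3% of the other eligible genes (25.5% higher, 8.72% lower). The median member stood at 0.29 and the median of the other eligible genes at 0.22, with 0.07 for all genes. HyS0007.166 (63.9, 74.4 and 63.3 TPM in the egg, 94.6 and 103 under Triptolide) and HyS0007.67 (92.1, 96.9 and 99.6 in the egg, 150.4 and 133 under Triptolide) had the largest increases. Their log2 fold changes were 0.63 (SE 0.18, edgeR adjusted p = 0.029) and 0.63 (SE 0.16, edgeR adjusted p = 0.0143). The call of HyS0007.166 ended under 6 of 12 alternatives. HyS0079.29 (34.4 and 38.4 TPM under Triptolide, -0.94, SE 0.10, edgeR adjusted p = 3.17e-05) and HyS0064.43 (17.7 and 21.8 TPM against 42.0, 39.9 and 34.8 in the egg, -0.91, SE 0.13, edgeR adjusted p = 0.000347) had the largest decreases. Leaving out the Triptolide library of clutch D gave 12 members and that of clutch G 25.

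**Figure D5:**
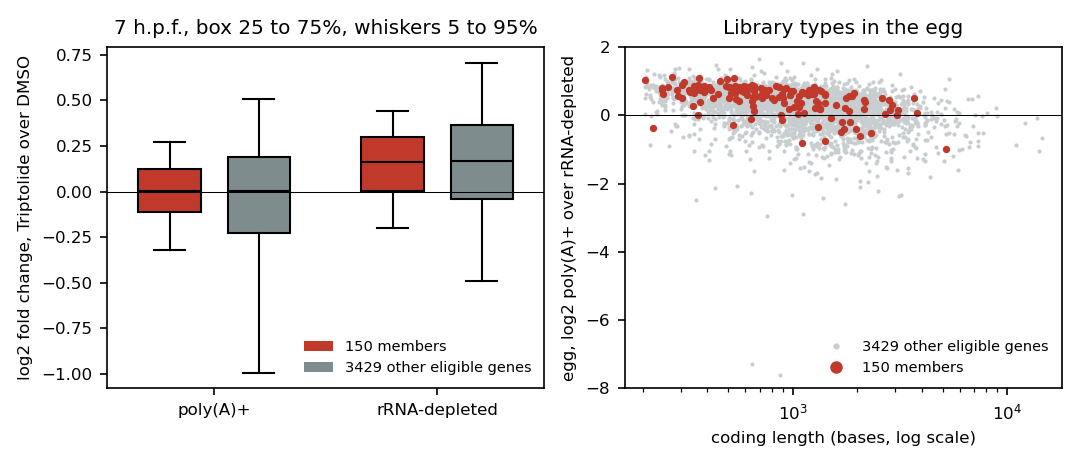
At left, log2 fold change of Triptolide over DMSO at 7 h (y axis) in each library type, as boxes from the 25th to the 75th percentile with the median as a line and whiskers from the 5th to the 95th, for members (red) and other eligible genes (grey). The member medians are 0.00 and 0.16, close to those of the others, with a narrower spread. At right, the egg log2 ratio of poly(A)+ over rRNA-depleted (y axis) against coding length in bases (x axis, log scale), 1 point per gene; short members lie above 0 more often than long ones.

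The egg libraries of both types give the level of each member with and without poly(A) selection. The rule used the poly(A)+ egg libraries, so these ratios are a description and nothing is read from their counts. edgeR called 106 of 150 members (70.7%), 98 higher in poly(A)+ and 8 lower, beside 27.5% of all 19461 genes (13.3% higher, 14.2% lower) and 57.7% of the other eligible genes, of which 1594 (46.5%) were higher. The median log2 ratio was 0.59 for members, 0.38 for the other eligible genes and 0 for all genes. Both groups had passed the minimum of 20 TPM in poly(A)+ libraries, and the members also the limit on their poly(A)+ range. The part these played in the ratios was not tested.

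The ratio moved with coding length. Among the 50 shortest members (up to 593 bases) 42 were higher in poly(A)+, with a median of 0.73. Among the 50 longest (over 1105 bases) 22 were higher and 7 lower, with a median of 0.31. The other eligible genes of the same lengths had medians of 0.59 in the shortest and 0.23 in the longest class, below the members in each. Since the rule used the poly(A)+ egg libraries, nothing about the members is read from this difference. The part of length in the ratio was not tested.

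HyS0028.132 (273 bases) and HyS0002.408 (366 bases) had the largest egg ratios. HyS0028.132 had 815, 555 and 509.6 TPM in the poly(A)+ egg and 459.5, 297 and 271 in the rRNA-depleted egg (log2 ratio 1.12). Clutch A was the highest in both library types. Its poly(A)+ level in the single libraries of clutch B, outside the rule, was 1581 TPM at 5 h and 1169.8 at 6 h, above every library the rule used. HyS0002.408 had 233, 164 and 171 TPM against 126, 102 and 86.6 (1.11). HyS0018.39, the longest member, had 46.2, 52.1 and 50.9 TPM against 129, 109 and 107 (-0.98). HyS0019.183 (1104 bases) had 45.7, 58.2 and 54.4 TPM against 98.6, 116 and 112 (-0.81).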

How the data were processed

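The authors trimmed reads with Trim Galore 0.6.6 and cutadapt 1.15 and assigned them to the protein-coding gene models with kallisto 0.46.1 in stranded mode, and deposited estimated counts per gene model with the model's length, here a coding length since all lengths are multiples of 3. The submitters' processing notes also name DESeq2 4.0.3. The deposited estimated counts (18.7% of values not whole) were rounded for the tests. TPM was computed from the unrounded counts.

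Tests used edgeR 4.0.16 (R 4.3.3, quasi-likelihood F test, TMM, genes whose counts summed to at least 10 in a fit) with 1 mean per group: 14 groups for poly(A)+ (18928 genes), 11 for rRNA-depleted (15944 genes) and 25 for both (19461 genes). Calls were at an adjusted p under 0.05 (Benjamini-Hochberg over all genes of the fit). A group with 1 library was assumed to vary like the others. DESeq2 1.42.0 was an alternative. Intervals cover 95%. The fits were tested on simulated data.

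The members and the genes named were chosen with earlier results of these data known. Named were the 5 members of smallest range, the 2 on either side of the limit, the 2 highest and 2 lowest in TPM, the 2 longest and 2 shortest, the members of widest and narrowest rRNA-depleted range, and in each comparison up to 2 higher and 2 lower, of largest fold among called members whose libraries did not overlap. Clutch letters mark a shared collection in the labels and so pair the samples: the clutch difference correlated between stages at r = 0.55 to 0.87 (A and C), and between DMSO and Triptolide at -0.04 and -0.01 (D and G). The main fits have no clutch term, so their p-values measure the spread between these collections and do not use the pairing. The same collections recur at several stages of a fit. Estimated counts of near-identical genes can be shared between them; models with identical counts were left out of TPM.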

Additional observations from a re-analysis of the deposited data

Results flagged for a closer look

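A pilot at 1 h.p.f., used in no comparison, gave 1 library of unselected RNA (548655 counts) and 1 poly(A)+ library (7902891 counts), each without a replicate. All 150 members were above the limit that a count of 0 allows (3 counts): 150 members above 3 counts in the unselected library, with a median of 24.2 counts and 86.4 TPM, and 150 in the poly(A)+ pilot, with a median of 541 counts and 103 TPM. These libraries stood out only as signal in data outside the main measurement. No group had the 4 samples that a search for single deviating libraries needs.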

How the results depend on the processing

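Of 150 members, 0 were chosen again on TMM-scaled counts per kilobase, which raised the larval levels of most members, and 100 to 147 under the other 6 definitions (1 model kept of each identical set, no model left out, a minimum of 10 or 50 TPM, the stages with 1 library added, the SD in place of the range). Leaving out 1 library gave 128 to 147. Within 2-fold over the rRNA-depleted libraries were 124 to 127 members by scale or pseudocount (0.1 TPM) and 127 to 133 without 1 library.

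Members called with RLE size factors were 49 (7 h.p.f.), 64 (7 h.p.f. DMSO) and 25 (any stage), with DESeq2 51, 65, 8 (poly(A)+ Triptolide) and 1 (interaction), and without a count minimum 24 (7 h.p.f. DMSO). At 4 h.p.f. 0 were called without the models left out of TPM and with only the compared groups. With only the compared groups, the Triptolide counts were 24 (poly(A)+), 25 (rRNA-depleted) and 2 (interaction). With the clutch or sample as a replicate block they were 15, 26 and 2, 7 h.p.f. DMSO gave 63, 7 h.p.f. Triptolide 53 and the egg library types 130. The block left the counts at 2, 3 and 4 h.p.f. within 1.5 times. Leaving out 1 library gave 0 at 2 and 3 h.p.f. and for poly(A)+ Triptolide, 0 to 1 at 4 h.p.f. and for the interaction, 1 to 5 for rRNA-depleted Triptolide, 7 to 14 for any stage, 25 to 28 at 7 h.p.f., 22 to 39 under DMSO, 12 to 45 under Triptolide against the egg, and 86 to 105 for the egg library types. For the named members, 204 of 240 values kept their call, 36 lost it and 0 changed direction. No paired analysis was possible because clutch B has no egg library for untreated 7 h.p.f. and for any stage, and the block fits of DMSO and Triptolide against the egg rest on clutch D. DESeq2 was not run for any stage, and the lone 7 h.p.f. library could not be left out. The cause of these differences was not tested.

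Depth limits the rRNA-depleted libraries of clutch B at 5 h.p.f. and clutch A at 0.5 h.p.f. most, where the lowest member counts were 14 and 15. Groups of 2 libraries leave few degrees of freedom, and the counts of calls above rest on a spread shared between groups.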
